A study of Homo sapiens with 32 samples.

Results

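Cytokine and chemokine mRNAs are described here for how fast they were lost from MDA-LM2 and MDA-MB-231 cells after a pulse of 4-thiouridine (4sU), a uridine analogue that marks newly made RNA. The set was a list of 10 genes, CXCL8, CXCL1, CXCL2, CXCL3, IL6, IL11, LIF, IL1A, IL1B and CSF1, found by matching the RefSeq rows of both rate tables to current symbols. Of the 10 genes, 6 had a rate in both tables, CXCL2 only in the MDA-MB-231 table and IL1B only in the MDA-LM2 table, and no row was found for CXCL1 or CXCL3, so these were not analysed for rates. The 8 genes with a rate stand among 12256 genes with a rate in at least 1 table, and the 6 among 10829 genes with a rate in both. MDA-MB-231 is an established human breast cancer line, and MDA-LM2 is its derivative selected for metastasis to the lung. Both lines received 4sU for 2 h and then excess uridine, and labelled RNA was taken at 0, 2, 4 and 7 h, with 4 libraries for each line and time. Each transcript has 1 decay rate in each of 4 series of a line, and a series spans the 4 times. A rate is positive where abundance fell with time, and it is given in the deposited unit, because no source used here gives its log base or scaling. Whether the series are separate cultures is not stated, and p-values reflect only the spread among them, which may be technical.

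Secreted cytokines and chemokines carry signals between tumour cells and the cells around them. Their genes are switched on in bursts, often by NF-kB, and their mRNAs are known for short lives. Much of that instability is known to come from AU-rich elements in the 3′ untranslated region (UTR), where copies of AUUUA recruit proteins such as ZFP36 that bring in the deadenylation machinery, while ELAVL1 and p38 kinase signalling are known to protect such mRNAs. In MDA-MB-231 cells IL6, IL11, CXCL8 and LIF are well known products, and IL11 and CXCL1 have been linked to metastasis in derivatives of this line.

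The stretches richest in AUUUA are shown first, because they are the known instability element of many of these mRNAs and the list was not drawn up from them. Each is read 5′ to 3′ on the sense strand from the GENCODE release 29 transcript paired with the RefSeq row and is written in DNA letters. Each was picked where that 3′ UTR has the most ATTTA copies within 30 bases, and was cut to at most 30 bases with its flanks. In LIF and IL1A this cut left out a further copy, so their stretches show fewer copies than their richest 30 bases hold. Capitals mark whole ATTTA copies.
CXCL8: cctATTTAttATTTAtgtATTTATTTAagc
CXCL2: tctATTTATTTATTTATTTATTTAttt
CXCL1: tctATTTATTTATTTAttc
CXCL3: cttATTTAtgtATTTAttt
IL6: ttaATTTAttaatATTTAaat
IL11: cttATTTATTTATTTAttt
LIF: tttATTTAttcaatgtcatATTTAaaatat
IL1A: attATTTAtatatgtATTTAtaaatatatt
IL1B: cctATTTATTTATTTAttt
CSF1: gtcATTTAaatatctATTTAaaa
As shown, the CXCL2 stretch held 5 overlapping copies, that of CXCL8 held 4, those of CXCL1, IL11 and IL1B held 3, and the others held 2. In the CXCL2, CXCL1, IL11 and IL1B stretches the copies followed each other without a gap. In CXCL2 and CXCL1, chemokine genes of the same cluster on chromosome 4, the stretch began at the same place, base 143 after the stop codon. The IL11 stretch (chromosome 19) lay close to the stop codon, from base 41 to base 59 after it, and the LIF stretch (chromosome 22) lay near the far end of a 3′ UTR of 3204 bases, from base 3097 to base 3126.

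Over the whole 3′ UTR, the chemokines, IL6 and IL1B were dense in ATTTA, and LIF and CSF1 were not. Per kb of 3′ UTR, IL6 had 14.1 copies, CXCL2 13.9, CXCL3 10.4, IL1B 9.84, CXCL8 7.19, CXCL1 7.08, IL11 5.56, IL1A 4.34, LIF 2.18 and the CSF1 transcript NM_000757 1.86. The median of 10794 genes with a rate and a matched 3′ UTR (88.1% of genes) was 1.78 per kb, and 6.52 marked the 95th percentile. ATTTA itself was found in 72.1% of these genes, so its presence sets no member apart. The longer motif TTATTTATT, which contains ATTTA, was found in 8.95% of them, and 3 or more copies, counted with overlaps, were found in 0.676%. IL11 held 6 copies, CXCL2 5, CXCL1 3, LIF 2, IL1B 2, CXCL8 1 and CXCL3 1, while IL6, IL1A and CSF1 had none in these transcripts. The motifs were searched on the transcript strand only, and a match is a description of the letters.

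Within MDA-LM2, 5 of the 6 cytokine genes with rates in both tables had a mean rank at or above percentile 82.5, and IL1A did not. The median rate over the 6 genes was 0.416 ± 0.0482, against a median over all genes of 0.165 ± 0.0106 (SD over 4 series each). In MDA-MB-231 the median of the 6 genes was 2.47 ± 2.92, against 0.189 ± 0.0152 over all genes, and it ranged from 0.283 to 6.49 between series. That spread came with rates above 1, which lie far outside the bulk of both tables. With CSF1 as the median of its transcripts, they made up 4 of 28 rates of the 7 measured members in MDA-LM2 (14.3%) and 14 of 28 in MDA-MB-231 (50%). These sets differ, with IL1B only in the first and CXCL2 only in the second. Among the 6 genes in both tables, 0 to 1 had such a rate per series in MDA-LM2, against 1 to 4 in MDA-MB-231. Over all genes in the table of each line (11709 for MDA-LM2 and 11485 for MDA-MB-231), 5.03% ± 0.427 of rates lay above 1 in MDA-LM2. In MDA-MB-231 18.5% ± 0.0816 did (SD, n = 4 series each), so such rates were also more frequent there outside this list. Rates above 8 made up 1.7% ± 0.212 in MDA-LM2, against 9.02% ± 0.296 in MDA-MB-231. No source used here says how the rates treat a transcript at 0 abundance, so it is not known whether the values of 8 and more given below are speeds on the same scale as the others.

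**Figure D1:**
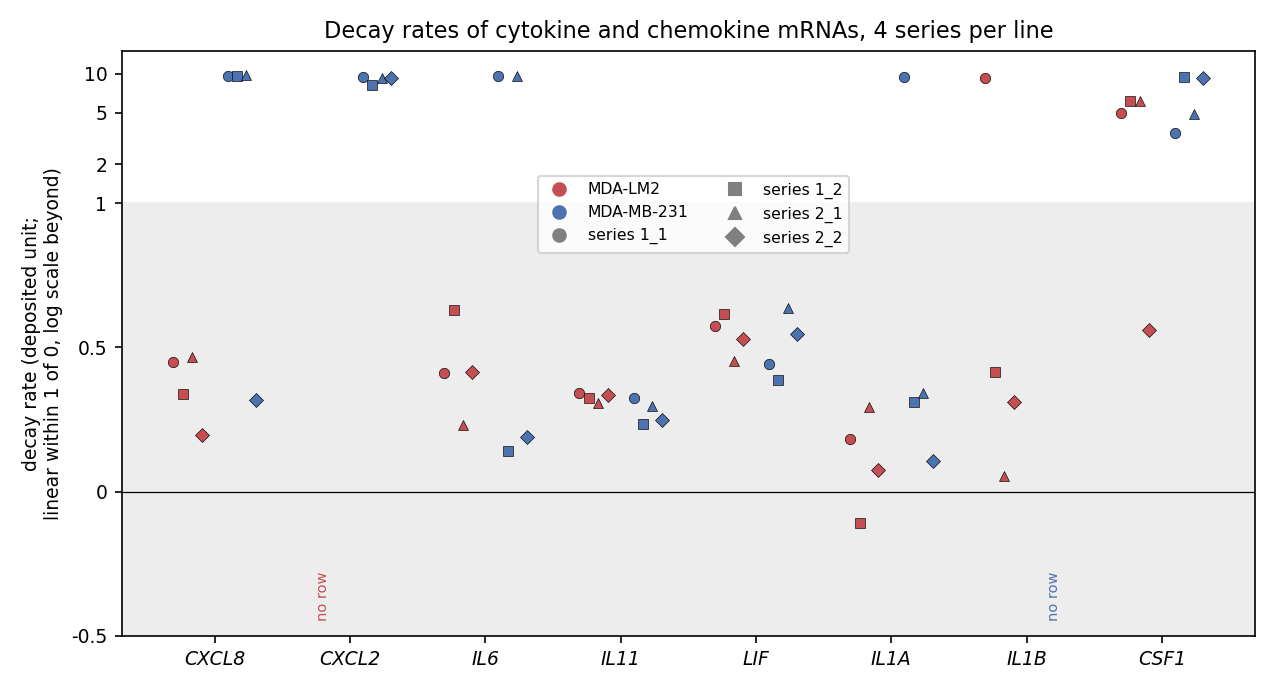
Decay rate (deposited unit, vertical axis, linear within 1 of 0 and logarithmic beyond) of each member in each of 4 series of MDA-LM2 (red) and MDA-MB-231 (blue), with the marker shape giving the series and grey shading the range within 1 of 0. CSF1 is the median of its 2 transcripts found in both tables. IL11 and LIF lie in the shaded range in all 8 series, and CXCL8, IL6 and IL1A have rates above 9 only in MDA-MB-231.

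The labels number each series by 2 digits, and the series of a line with the same second digit were the most alike. Across the genes in both tables, Spearman's rank correlation between series with that digit in common was 0.837 and 0.792 in MDA-LM2, against 0.78 and 0.631 in MDA-MB-231. Between series with no shared digit it was 0.615 and 0.617 in MDA-LM2, against 0.328 and 0.262 in MDA-MB-231. Genes are not independent replicates, and no test is attached to these values. A further fit, called correlated series here, therefore estimates how alike such pairs are.

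CXCL8 encodes interleukin 8, a chemokine that draws in neutrophils. Its rates in MDA-LM2 were 0.451, 0.337, 0.468 and 0.196 in series 1_1, 1_2, 2_1 and 2_2. In the same order, its rates in MDA-MB-231 were 9.62, 9.62, 9.67 and 0.319. Thus 3 of 4 MDA-MB-231 series stood far above every MDA-LM2 series, and the fourth lay inside the MDA-LM2 range. The mean difference of MDA-LM2 minus MDA-MB-231 was -6.94 ± 2.29 (SE, 95% interval -12.4 to -1.53), and it did not pass (limma adjusted p = 0.109, unadjusted p = 0.019). In the fit of rates with correlated series the adjusted p was 0.346. The outcome changed with a single series: without series 2_2 of MDA-MB-231 the difference was -9.27 and the limma adjusted p was 0.000983. That call rests on MDA-MB-231 rates of 9.62 to 9.67, whose scale is not known. With all series kept and rates limited to between -1 and 1, the difference was -0.467 (limma adjusted p = 0.124). By percentiles within each series it was -9.47 points (limma adjusted p = 0.521).

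CXCL2 encodes another neutrophil chemokine, which acts through the receptor CXCR2. It had rates only in MDA-MB-231, at 9.36, 8.18, 9.29 and 9.26. All 4 rates were far above 1, between percentiles 90.9 and 94.5 of the 11485 genes in that table. Its value in MDA-LM2 was not measured here, so no comparison of the lines is made. Among the stretches shown above, that of CXCL2 has the longest unbroken run of ATTTA copies.

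IL6 encodes interleukin 6, which signals through the shared receptor subunit IL6ST to STAT3. Its rates in MDA-LM2 were 0.41, 0.628, 0.229 and 0.414. Those in MDA-MB-231 were 9.64, 0.141, 9.66 and 0.188, again in the order 1_1, 1_2, 2_1 and 2_2. The MDA-MB-231 rates split by the second digit, with both series numbered 1 above 9 and both series numbered 2 below every MDA-LM2 series. The mean difference of -4.49 ± 2.6 (SE) thus hides opposite signs in the pairs and did not pass (limma adjusted p = 0.291, and 0.387 with correlated series).

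IL11 encodes interleukin 11, an IL6 family cytokine with its own receptor subunit beside IL6ST. It was the most even of the members: its rates in MDA-LM2 were 0.342, 0.325, 0.308 and 0.335. In MDA-MB-231 they were 0.326, 0.234, 0.296 and 0.247. Every rate lay within 1 of 0, and the ranges overlapped only through the highest MDA-MB-231 series. The SD was 0.015 for MDA-LM2 and 0.0429 for MDA-MB-231. The mean difference was 0.0519 ± 0.0276 (SE, 95% interval -0.0132 to 0.117) and did not pass (limma adjusted p = 0.274, and 0.427 with correlated series).

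LIF encodes leukaemia inhibitory factor, a further ligand of receptors that contain IL6ST. Its rates in MDA-LM2 were 0.573, 0.618, 0.452 and 0.53. In MDA-MB-231 they were 0.441, 0.387, 0.637 and 0.547. LIF was thus a fast mRNA in all 8 series, and its ranges in the lines overlapped widely. The mean difference was 0.0401 ± 0.068 (SE, 95% interval -0.12 to 0.201) and did not pass (limma adjusted p = 0.696).

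**Figure D2:**
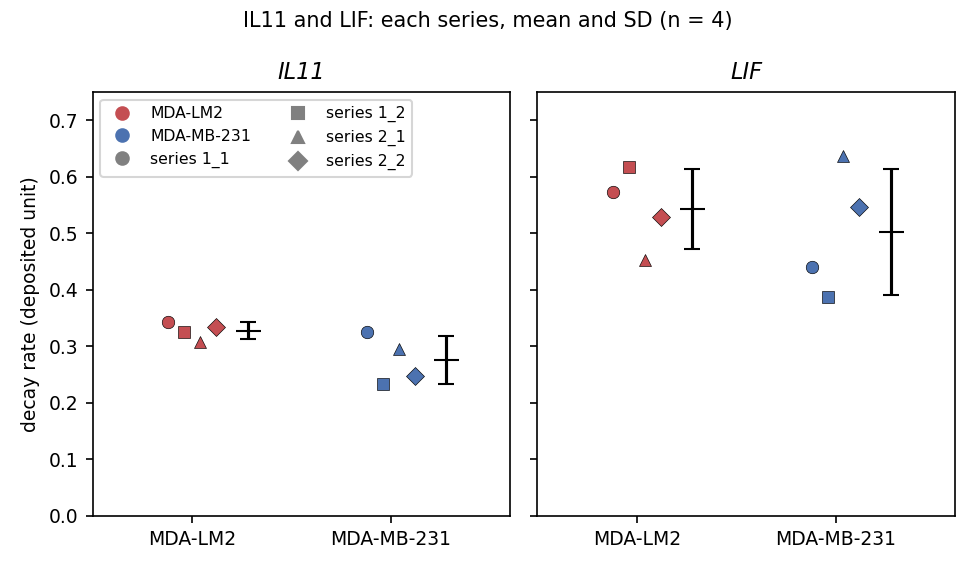
Decay rates (deposited unit, vertical axis from 0) of IL11 and LIF, with 1 point for each of 4 series of MDA-LM2 (red) and MDA-MB-231 (blue) and the mean with its SD beside them. IL11 averaged 0.328 in MDA-LM2 cells, against 0.276 in MDA-MB-231, and LIF 0.543 and 0.503 in the same order.

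IL1A encodes interleukin 1 alpha, an alarm cytokine that acts through IL1R1 and IL1RAP. Its rates in MDA-LM2 were 0.183, -0.109, 0.292 and 0.0739. In MDA-MB-231 they were 9.46, 0.311, 0.341 and 0.107. The series 1_1 of MDA-MB-231 alone stood far out, and the other rates of both lines lay between -0.109 and 0.341. The mean difference was -2.45 ± 2.13 (SE) and did not pass (limma adjusted p = 0.469), and without series 1_1 of MDA-MB-231 it was -0.143, with a limma adjusted p of 0.415.

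IL1B, which encodes interleukin 1 beta, had rates only in MDA-LM2, at 9.23, 0.415, 0.0534 and 0.31. Here too a single series stood apart, 1_1, at percentile 99.1 of the 11709 genes in that table, while series 2_1 lay at percentile 19. Its 4 rates thus spread over most of the table and give no single speed.

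CSF1 encodes the growth factor of macrophages, and 3 of its transcripts had rates. NM_000757 had rates of 9.53, 9.59, 9.53 and 0.812 in MDA-LM2, against 9.39, 9.33, 9.41 and 9.35 in MDA-MB-231. NM_172210 had rates of 0.488, 2.79, 2.8 and 0.306 in MDA-LM2, against -2.36, 9.43, 0.286 and 9.29 in MDA-MB-231. NM_172212 had a row only in the MDA-LM2 table, with rates of 0.057, -2.06, 0.0908 and 0.00627. NM_000757 stayed above 9 in all series but 1, whereas NM_172212 lay near 0 in 3 of its 4 series, and each NM_172212 rate lay below the NM_000757 rate of its series.

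These CSF1 transcripts differ in the 3′ UTR. NM_000757 and NM_172212 had coding parts of the same length in their GENCODE transcripts, 1662 bases without the stop codon. The 3′ UTR of NM_000757 was 2154 bases long with 4 ATTTA copies, and that of NM_172212 was 694 bases long with 0 copies. The first 30 bases after the stop codon of NM_172212 are shown as an example of a stretch without ATTTA.
CSF1 NM_172212: agggaattctaagacccctcaccatcctgg
The GENCODE transcript paired with NM_172210 ended 9 bases after the stop codon, so its 3′ UTR was not used. Reads of the shared coding part cannot be assigned to 1 transcript with certainty, so the split between these rows is uncertain. As the median of the 2 transcripts in both tables, CSF1 averaged 4.48 ± 2.67 in MDA-LM2 cells, against 6.76 ± 3.03 in MDA-MB-231 (SD, n = 4 series each), and the difference of -2.28 ± 1.88 (SE) did not pass (limma adjusted p = 0.45).

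**Figure D3:**
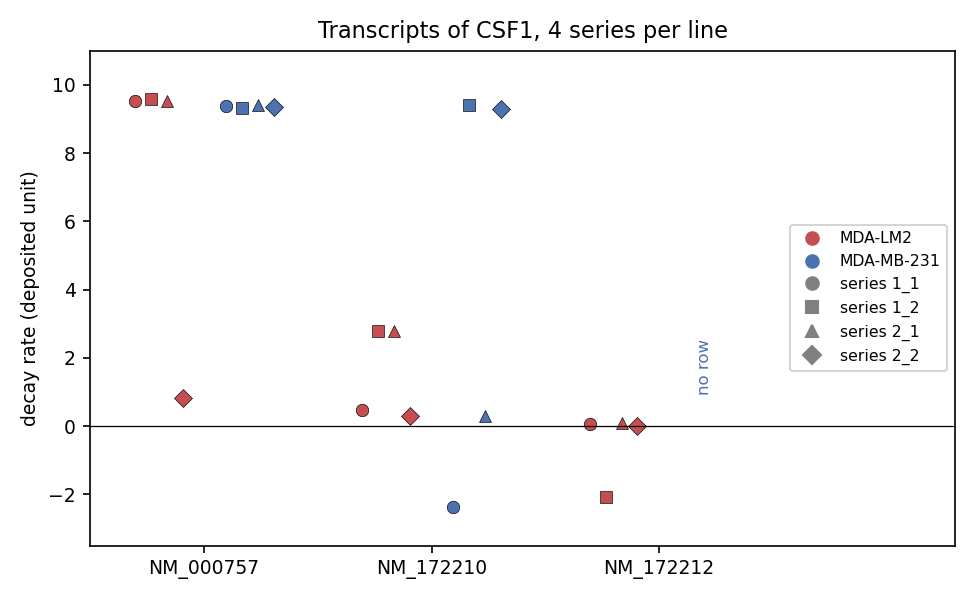
Decay rate (deposited unit, vertical axis) of the 3 CSF1 transcripts in 4 series of MDA-LM2 (red) and MDA-MB-231 (blue), with the marker shape giving the series. NM_000757 lies above 9 in 7 of 8 series, and NM_172212 lies between -2.06 and 0.0908 in MDA-LM2 and has no row for MDA-MB-231.

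Between the lines, none of the 6 cytokine genes passed the limma adjusted p of 0.05 in either direction, and 1, CXCL8, had an unadjusted p under 0.05. Over all 10829 genes, 6.71% were called slower and 2.00% faster in MDA-LM2, and 26.2% had an unadjusted p under 0.05. With correlated series none of the 6 was called either, against 3.18% of genes slower and 0.323% faster. The score in the authors' deposited table, its size read as 1 minus a p-value by assumption and adjusted by Benjamini-Hochberg, called 0 of the 6 as well, against 5.35% of genes slower and 1.27% faster. That score, headed a t-score, ran against the sign of MDA-LM2 minus MDA-MB-231 in all 12966 transcripts, so a positive value marks slower decay in MDA-LM2. In the authors' deposited table it was 0.942 for CXCL8, 0.8 for IL6, 0.634 for IL1A, 0.572 and 0.533 for the CSF1 transcripts NM_000757 and NM_172210, -0.431 for LIF and -0.911 for IL11. In an exact two-sided permutation test of the 4 against 4 series, run gene by gene, CXCL8 had p = 0.114 and IL11 p = 0.0857, with 0.0286 the smallest p possible and 0.143 or more for the other genes. The mean rate was lower in MDA-LM2 for 4 of the 6 genes (67.0% of all genes), but by percentiles IL6 and CSF1 turned to higher, and the median difference over the 6 was -2.36, against -0.05 over all genes. None of the 6 genes had ranges that did not overlap between the lines, against 23.2% of all genes.

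Ranks within a series set aside the size of the extreme values but not their number. A rate within 1 of 0 ranks below every rate above 1 of its series. Such high rates made up 18.5% of genes in the full MDA-MB-231 table, against 5.03% for MDA-LM2. The same rate can therefore rank lower in MDA-MB-231. Each rate was placed among the 10829 genes of its series. LIF lay between percentiles 93.4 and 96 in MDA-LM2 and between 76.4 and 82 in MDA-MB-231. IL11 lay between 82 and 87.9 in MDA-LM2 and between 62.1 and 72.3 in MDA-MB-231. For both genes the ranges did not overlap, which held for 25.7% of all genes in either direction. CSF1 was at 94.4 or higher in MDA-LM2 and between 90.1 and 94.2 in MDA-MB-231, likewise without overlap, which makes 3 of the 6 genes, although its mean rate was lower in MDA-LM2.

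In a limma fit of these percentiles, added after the values were seen, LIF ranked higher in MDA-LM2 by 15.1 ± 2.83 percentile points (SE, adjusted p = 0.0136) and IL11 by 18.8 ± 4.5 (adjusted p = 0.0296). These were 2 of 6 members called faster by rank, against 7.64% of all genes. Neither passed in the fit with correlated series, with limma adjusted p of 0.123 for LIF and 0.165 for IL11 (0.480% of all genes called faster there). Nor did they pass among the 7224 genes with all 8 rates within 1 of 0, of which 5.52% were called faster. There LIF averaged percentile 99.1 ± 0.661 in MDA-LM2 cells, against 96.2 ± 2.5 in MDA-MB-231, and IL11 90.7 ± 2.33 and 80.2 ± 5.38 in the same order (SD, n = 4 series each; limma adjusted p = 0.366 and 0.103). The rank differences of both genes were smaller among these genes, and rates above 1 were more frequent in MDA-MB-231; the part of such rates in the rank differences was otherwise not tested.

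**Figure D4:**
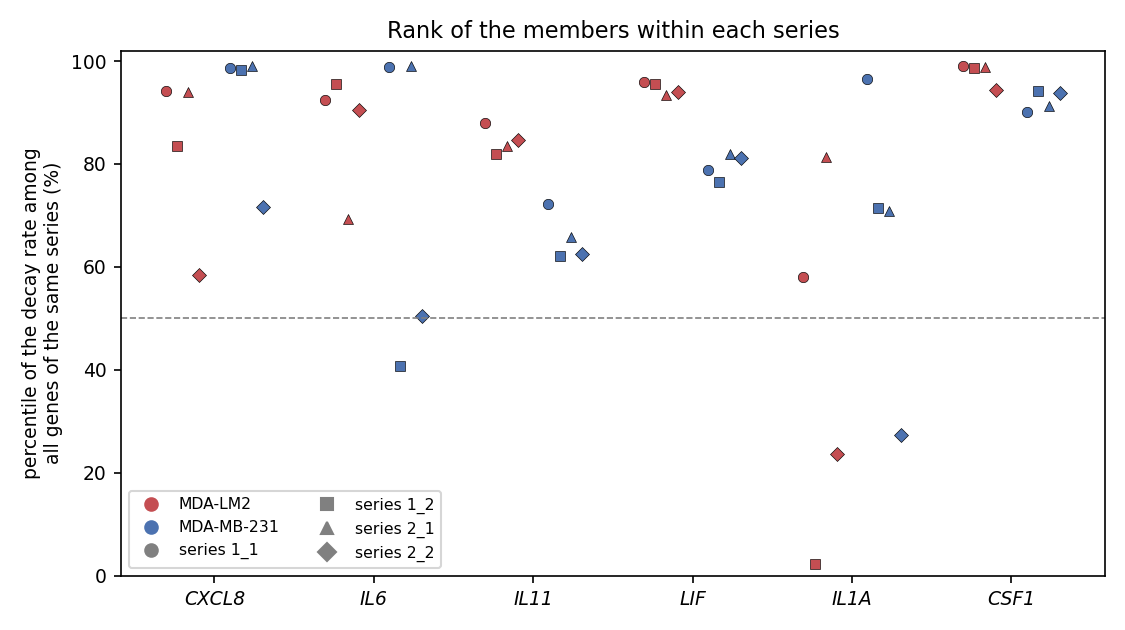
Percentile of the decay rate among 10829 genes of the same series (vertical axis, %, with the dashed line at the middle) for the 6 members in both tables, with 1 point for each of 4 series of MDA-LM2 (red) and MDA-MB-231 (blue). LIF, IL11 and CSF1 lie higher in all MDA-LM2 series than in any MDA-MB-231 series, and IL6 and IL1A spread widely within MDA-MB-231.

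By mean percentile in MDA-LM2 the order was CSF1 at 97.8 ± 2.25, LIF at 94.7 ± 1.24, IL6 at 87 ± 11.9, IL11 at 84.5 ± 2.54, CXCL8 at 82.5 ± 16.8 and IL1A at 41.4 ± 35.2 (SD, n = 4 series). In MDA-MB-231 it was CSF1 at 92.3 ± 1.97, CXCL8 at 91.9 ± 13.6, LIF at 79.6 ± 2.49, IL6 at 72.3 ± 31, IL1A at 66.5 ± 28.7 and IL11 at 65.7 ± 4.72. CSF1, as the median of transcripts with unlike rates, came first in both lines. The ranges over series of each pair of neighbours in these orders overlapped. Within the same series, CSF1 was above LIF in all 4 series of both lines, and differences between members were not tested.

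The density of AU-rich motifs did not order the members by speed. CSF1 and LIF, with the lowest ATTTA density, had the highest mean percentiles in MDA-LM2, and IL6, with the highest density, came next with a wide spread. The CSF1 rank is that of the median of transcripts with unlike rates, some of them on an uncertain scale, whereas its density is that of NM_000757 alone. Over all genes the motifs went with small shifts of the median rate. Genes with 3 or more TTATTTATT copies (67 genes) had a median of 0.194 ± 0.00724 in MDA-LM2 cells, against 0.195 ± 0.0312 in MDA-MB-231. Genes without the motif (8767 genes) had 0.158 ± 0.0107 and 0.185 ± 0.0157 in the same order (SD over 4 series). The 471 genes at or above the 95th percentile of ATTTA density had 0.142 ± 0.00975 in MDA-LM2 cells, against 0.185 ± 0.021 in MDA-MB-231. The 2545 genes without ATTTA were close to these, with 0.143 ± 0.00742 and 0.18 ± 0.0125 in the same order, and the 2153 genes that hold ATTTA at a density below the median had 0.189 ± 0.00881 and 0.198 ± 0.0154. The median of the genes with 3 or more TTATTTATT copies was above that of the genes without it in all MDA-LM2 series and in all but 1 of the MDA-MB-231 series. These are descriptions across genes, and no test was run.

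**Figure D5:**
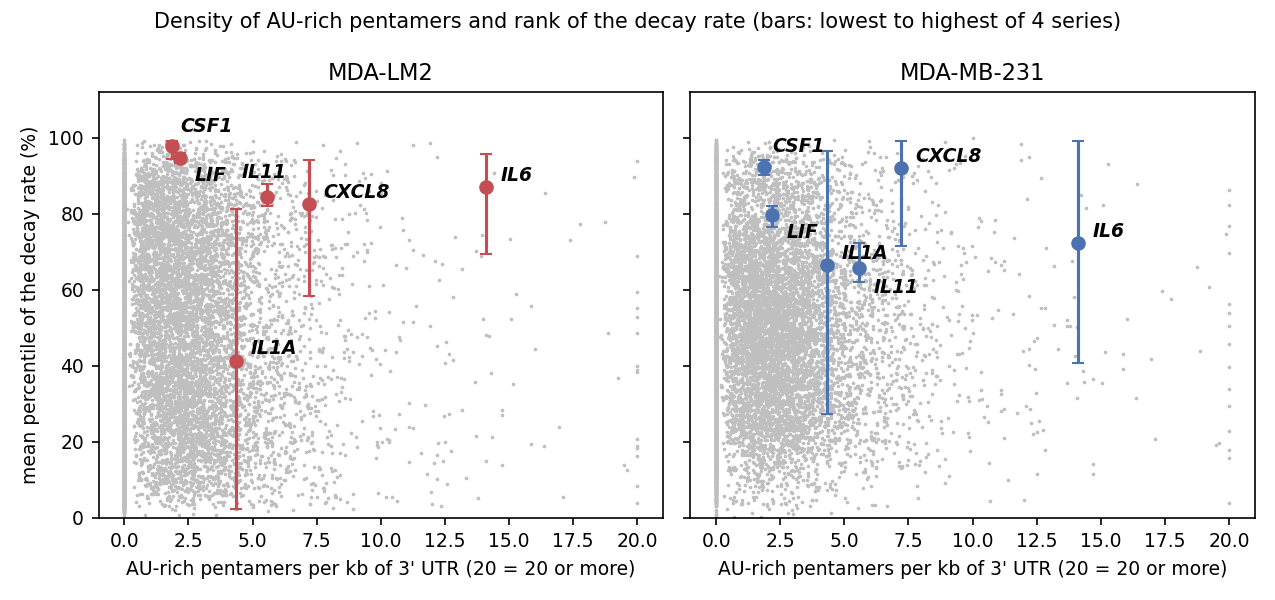
Mean percentile of the decay rate over 4 series (vertical axis, %) against copies of the AU-rich pentamer per kb of 3′ UTR (horizontal axis, with values of 20 or more drawn at 20) in MDA-LM2 (left) and MDA-MB-231 (right). Grey points are the genes with a rate in both tables and a matched 3′ UTR. Coloured points are the 6 members with bars from the lowest to the highest series, and CSF1 uses the 3′ UTR of NM_000757. IL6 lies furthest right at 14.1, and CSF1 and LIF lie at 1.86 and 2.18 near the top in MDA-LM2.

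For each of the 2 members with all rates within 1 of 0, the 3 genes with the smallest Euclidean distance over the 8 rates are named. For LIF they were the kinase gene SGK1 (distance 0.19), RND3 (0.23) and HBEGF (0.264). HBEGF, which encodes a growth factor of the EGF family, averaged 0.499 ± 0.0603 in MDA-LM2 cells, against 0.462 ± 0.0294 in MDA-MB-231 (SD, n = 4 series each). For IL11 they were KANSL2 (0.0723), the cytochrome P450 gene CYP1B1 (0.0762) and UTP25 (0.0879).

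Other genes of the cytokine pathways were taken from 5 lists. Of 39 further cytokines and chemokines, only 6 had rates in both tables, and 1 of the 6 was called slower and 0 faster. That stands beside 6.71% of all genes called slower and 2.00% called faster. IL18, a cytokine of the interleukin 1 family, had -0.0323 ± 0.147 in MDA-LM2 cells, against 1.59 ± 0.0455 in MDA-MB-231 (limma adjusted p = 5.89e-05; 0.000325 in the fit with correlated series). All 4 of its MDA-MB-231 rates lay beyond 1. The chemokine CCL5 had 0.277 ± 0.0733 in MDA-LM2 cells, against 0.0929 ± 0.0884 in MDA-MB-231 and did not pass (limma adjusted p = 0.0886). CCL28 and MIF each had a single rate above 9 in MDA-MB-231 and did not pass.

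Of 11 receptor genes for these ligands, 4 had rates in both tables and none was called. An unadjusted limma p under 0.05 was found for 2 of the 4, against 26.2% of all genes. The receptors of the neutrophil chemokines, CXCR1 and CXCR2, and of CSF1, CSF1R, had no row in either table. OSMR, which pairs with IL6ST, had 0.154 ± 0.0389 in MDA-LM2 cells, against 0.0662 ± 0.0794 in MDA-MB-231 (limma adjusted p = 0.241). IL1RAP, the partner of IL1R1, had -0.417 ± 0.79 in MDA-LM2 cells, against 3.55 ± 4.97 in MDA-MB-231 (limma adjusted p = 0.295). IL6ST itself, named after its values were seen, had -0.032 ± 0.0588 in MDA-LM2 cells, against 0.813 ± 0.712 in MDA-MB-231. Its ranges did not overlap, which held for 23.2% of all genes, and it did not pass (limma adjusted p = 0.16).

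Of 22 measured signalling and processing partners, 2 were called slower and 1 faster (6.71% and 2.00% of all genes). SOCS3, the feedback inhibitor induced by IL6 family cytokines, had 0.516 ± 0.0901 in MDA-LM2 cells, against 0.254 ± 0.0899 in MDA-MB-231 (limma adjusted p = 0.0485; 0.2 in the fit with correlated series). ADAM10, a protease that sheds membrane proteins, had 0.0425 ± 0.00855 in MDA-LM2 cells, against 0.109 ± 0.0202 in MDA-MB-231 (0.0378; 0.183). IRAK4, a kinase below the interleukin 1 receptor, had the lowest mean rate of the list, with a single MDA-MB-231 rate of -2.71.

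Of 12 measured NF-kB genes and inducers of cytokine genes, 1 was called slower and 2 faster (6.71% and 2.00% of all genes). NFKBIZ, a nuclear cofactor of NF-kB needed for IL6 induction, had 0.539 ± 0.0463 in MDA-LM2 cells, against 0.228 ± 0.0795 in MDA-MB-231 (limma adjusted p = 0.00954; 0.0547 in the fit with correlated series). FOSL1, an AP-1 subunit, had 0.557 ± 0.0354 and 0.307 ± 0.0407 in the same order (0.00622; 0.0314), and its call was lost with a robust variance prior (0.0636) and by percentiles with correlated series (0.069). NFKBIA, the inhibitor of NF-kB, had 0.489 ± 0.216 in MDA-LM2 cells, against 9.7 ± 0.065 in MDA-MB-231 (5.89e-05; 0.000325), and its call was lost by percentiles (limma adjusted p = 0.152). CEBPB, a transcription factor that acts on the IL6 promoter, had 9.2 ± 0.113 in MDA-LM2 cells, against 7 ± 4.51 in MDA-MB-231 and did not pass. NFKB2, an NF-kB subunit gene, was the slowest of the list on average, at 0.212 ± 0.0401 in MDA-LM2 cells, against 0.106 ± 0.162 in MDA-MB-231.

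Of 13 measured factors that control the decay of cytokine mRNAs, 1 was called slower and 1 faster (6.71% and 2.00% of all genes). ZFP36L1, which binds AU-rich elements and promotes decay, was itself a fast mRNA, with 0.535 ± 0.0384 in MDA-LM2 cells, against 0.328 ± 0.0479 in MDA-MB-231 (limma adjusted p = 0.0183; 0.0652 in the fit with correlated series). TIAL1, an RNA-binding protein that restrains translation, had 0.213 ± 0.0514 in MDA-LM2 cells, against 1.5 ± 0.0841 in MDA-MB-231 (5.91e-05; 0.000325), and its call was lost by percentiles with correlated series (0.283). ZFP36L2, a relative of ZFP36L1, had 0.437 ± 0.152 in MDA-LM2 cells, against 4.8 ± 5.23 in MDA-MB-231 and did not pass, and YBX1, a cold shock domain protein that binds mRNA, was the slowest, at -0.0171 ± 0.0109 in MDA-LM2 cells, against 0.00751 ± 0.0197 in MDA-MB-231. ZFP36 itself and ZC3H12A had no row in either table. IL18, NFKBIA and TIAL1 each had all 4 MDA-MB-231 rates beyond 1.

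As a check of the lines, all 4 markers listed for MDA-MB-231 type cells (VIM, CD44, CAV1 and AXL) had rates in both tables, as did 3 of 6 luminal epithelial markers (KRT8, KRT18 and EPCAM), while ESR1, PGR and CDH1 had none. Of 11 leukocyte, endothelial and fibroblast markers, CD68 had a rate in both tables and COL1A1 in the MDA-MB-231 table. The tables hold rates and not levels, so these values show only which genes were measured.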

How the data were processed

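RNA labelled with 4sU was sequenced from MDA-LM2 and MDA-MB-231 cells in 32 libraries. Per the labels' protocols, libraries were made with ScriptSeq V2 from precipitated RNA, and the authors estimated a decay rate, a score in an unstated unit, per transcript and replicate series, in which loss over time is positive. The deposited differential score compares the lines per transcript, and its test is not given in the sources used here. TopHat, Cufflinks and hg18 are named without roles in the submitters' processing notes. Read depth is unknown, so no interval that needs it is given.

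Of the RefSeq accessions in either table, 15346 were named from a RefSeq gene table of GRCh38.p14 and 150 from GENCODE 29, and 276 had no symbol. Coordinates are left out, as hg18 and GRCh38 differ. A gene's rate was the median over its transcripts in both tables. A two-sided limma 3.58.1 fit (R 4.3.3) with a variance trend and without a block compared 4 with 4 series over 10829 genes with Benjamini-Hochberg adjustment. The fit was tested on simulated data. Motifs were counted in 3′ UTRs of GENCODE 29 transcripts, with overlaps. No column was left unmapped (0).

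The members, lists and tests were chosen with earlier results of these data known. Named genes are all members, and from each list the fastest, the slowest, the gene of largest difference and up to 6 called genes, plus the 3 genes nearest to IL11 and to LIF. A gene that this rule names among the signalling partners is not reported here. Alternatives changed the variance prior, scaling, range, pairing and replicates, and percentiles and exact permutation tests were added after the values were seen.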

Additional observations from a re-analysis of the deposited data

Results flagged for a closer look

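Of 59 groups of 4 series examined, 12 held a series far from the other 3. At 1 in 20, chance would give about 2.95 if the groups were unselected and the series independent, which they are not.

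Among the cytokine genes, the series apart were 9.23 for IL1B in MDA-LM2 (series 1_1), 0.812 for the CSF1 transcript NM_000757 in MDA-LM2 (2_2), and -2.06 for NM_172212 in MDA-LM2 (1_2). In MDA-MB-231 they were 0.319 for CXCL8 (2_2), 8.18 for CXCL2 (1_2) and 9.46 for IL1A (1_1). In the other lists they were 0.349 for MIF and -1.59 for IL1RAP in MDA-LM2. Those for MDA-MB-231 were 9.62 for CCL28, 9.7 for MIF, -2.71 for IRAK4 and 0.24 for CEBPB. The causes were not tested.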

How the results depend on the processing

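None of the 6 genes with rates in both tables, CXCL8, IL6, IL11, LIF, IL1A and CSF1, was called slower or faster in MDA-LM2 under the limma alternatives, with these exceptions. Without series 2_2 of MDA-MB-231, 1 was called slower (CXCL8), beside 738 of all 10829 genes in that fit. Leaving out each replicate in turn otherwise gave 0 (range 0 to 1 slower and 0 to 0 faster). By percentiles within each series, 2 were called faster (LIF and IL11), against 7.64% of all genes. Adjusted p over the alternatives ranged from 0.000983 to 0.739 for CXCL8, 0.157 to 0.678 for IL6, 0.0296 to 0.427 for IL11, 0.0136 to 0.989 for LIF, 0.294 to 0.703 for IL1A and 0.141 to 0.723 for CSF1. By percentiles the differences of IL6 (14.7 points) and CSF1 (5.43 points) turned to higher in MDA-LM2, under all 3 fits of percentiles over all genes. Others that turned were IRAK4 (-14.5 points by percentiles, -0.101 on transcripts and by the deposited score, -0.158 to 0.865 without 1 replicate), CEBPB (-0.0576 to 2.99 without 1 replicate), ZFP36L2 (9.64 points by percentiles) and YBX1 (0.000168 with series centred). With the replicate block on rates, the calls of FOSL1 (adjusted p 0.0929), NFKBIZ (0.11), ZFP36L1 (0.1), SOCS3 (0.125) and ADAM10 (0.171) were lost, and those of IL18, NFKBIA and TIAL1 were not (0.0161 each). Leaving out single replicates also ended the calls of ADAM10 (adjusted p up to 0.117), SOCS3 (up to 0.128) and ZFP36L1 (up to 0.0626). The causes were not tested.

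Over all genes, 727 were called slower and 217 faster. Centring each series gave 434 faster, and the deposited score 137 faster. The replicate block gave 250 slower and 27 faster, and correlated series 344 and 35. Leaving out 1 replicate gave 406 to 1008 slower and 84 to 283 faster. Percentiles gave 827 faster, 97 slower and 52 faster with correlated series, 86 and 41 with the replicate block, and 399 faster among genes within 1 of 0. Deviations of same-numbered series of the lines correlated at -0.0373 to -0.00799 across genes within 1 of 0. Genes with rates outside that range were not part of this check, so it does not settle whether the numbers pair the lines. With the replicate block 0 members were called, on rates and on percentiles. The fit among genes within 1 of 0 gave no value for CXCL8, IL6, IL1A and CSF1, which have rates outside that range. Read depth is unknown and limits the precision of every rate.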
